A study of Mus musculus with 4 samples.

Results

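The 9 genes described here, Pax3, Pax7, Olig3, Pax6, Dbx2, Lhx1, Nkx6-1, Nkx6-2 and Olig2, encode transcription factors that divide the neural tube and hindbrain into domains along the dorsoventral axis. They were chosen by gene symbol among 52636 counted genes, as factors that would mark neural tissue next to the developing inner ear. RNA-seq read counts were available for 2 libraries of genotype Brg1cKO, a conditional knockout of the chromatin remodeler gene Brg1 (Smarca4), and for 2 libraries of genotype Control. Each library was made from 3000 cells of mouse otic ectoderm, sorted by fluorescence from otocysts, the closed vesicles that form the inner ear. The sources used here give no embryonic stage, strain, Cre driver, floxed exons or further detail of the control genotype. They do not say that replicates came from separate litters or sorts either, so the p-values reflect variation among these 4 libraries and that variation may be technical.

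In the embryo, Sonic hedgehog from the notochord and floor plate and BMP and WNT signals from the roof plate pattern the neural tube in opposite directions. Cells translate these signals into domains of homeodomain and basic helix-loop-helix factors, and neighbouring domains sharpen their borders because many of these factors repress each other. Pax3, Pax7 and Olig3 mark dorsal progenitors, Pax6 and Dbx2 intermediate ones, and Nkx6-1, Nkx6-2 and Olig2 ventral ones, while Lhx1 marks several classes of interneurons that have left the cell cycle. The hindbrain lies against the otic vesicle, and its dorsal edge gives rise to neural crest. Some of the factors also act elsewhere, Pax3 and Pax7 in muscle precursors and neural crest, Pax6 in the eye and Nkx6-1 in the pancreas.

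Brg1cKO libraries held 29361382 and 25875555 reads in genes, and Control libraries held 15357265 and 19132360. Levels below are CPM, the reads of each gene per 1000000 of its library's TMM-scaled total. A count of 0 allows a level of up to 0.102 and 0.116 CPM in Brg1cKO replicates 1 and 2 and up to 0.195 and 0.159 CPM in Control replicates 1 and 2, taking 3 reads as the limit, and these limits cover counting error only because amplified reads are not independent molecules. Smarca4 itself stood at 891 and 848 CPM in Brg1cKO libraries and at 816 and 815 CPM in Control libraries. This count takes all exons together, and these sources do not give the floxed ones. Loss of an exon was not tested, so the count checks the labels little. Defining otic markers were present in all 4 libraries, at unequal levels. Oc90, an otoconial matrix protein, stood at 44.6 and 49.1 CPM in Brg1cKO libraries and at 782 and 732 CPM in Control libraries. The summed level of 12 otic epithelium markers, Oc90 included, was 353 and 428 CPM in Brg1cKO libraries, against 1568 and 1771 CPM in Control libraries. Of these markers, 11 had a negative log2 fold change of Brg1cKO over Control and 1 a positive one.

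The factors were rare transcripts and differed between the groups first of all in whether they were read at all. In Brg1cKO replicates 1 and 2, 8 and 7 of the 9 factors had at least 1 read, against 2 and 5 in Control replicates 1 and 2. Over all genes, 20859 and 20902 had at least 1 read in Brg1cKO libraries, which were also the deeper ones, against 17266 and 17086 in Control libraries. Records that did not align made up 9.54% and 9.41% of Brg1cKO libraries and 20.9% and 19.1% of Control libraries, and records outside any gene 14.5% and 15.0% of Brg1cKO libraries and 21.0% and 21.6% of Control libraries. The part of these shares in which genes were read was not tested. Pax3, Nkx6-2 and Olig3 were read in both Brg1cKO libraries and at 0 in both Control libraries, and no factor showed the opposite pattern. That pattern held for 1693 of 25174 genes with at least 1 read, or 6.73%, and for 11.3% of the 7568 genes whose reads over all libraries lay in the range of the factors, from 43 to 841. The opposite pattern, 0 reads in both Brg1cKO libraries and reads in both Control libraries, held for 0.437% and 0.78% of the same sets of genes, so the first pattern was the more frequent one over all genes too.

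The RefSeq promoter table (GRCm38.p6, the assembly of mm10) had an entry for 8 of the 9 factors (all but Pax3). The sequences before the transcription start of Nkx6-2 and Olig3 are shown because these are the factors with an entry that were read in both Brg1cKO libraries and at 0 in both Control libraries. They cover chr7:139582798-139583047 on the minus strand for Nkx6-2 and chr10:19356289-19356532 on the plus strand for Olig3, each written 5′ to 3′ along its gene, with bases in an annotated exon left off. Capitals mark matches on either strand to the E-box CANNTG, the CCAAT box and the TATAAA box.
Nkx6-2: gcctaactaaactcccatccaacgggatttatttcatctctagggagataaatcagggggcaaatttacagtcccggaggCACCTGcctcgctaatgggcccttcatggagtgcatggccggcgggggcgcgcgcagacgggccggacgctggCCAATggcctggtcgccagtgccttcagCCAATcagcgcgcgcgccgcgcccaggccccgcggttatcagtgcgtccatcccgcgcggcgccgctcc
Olig3: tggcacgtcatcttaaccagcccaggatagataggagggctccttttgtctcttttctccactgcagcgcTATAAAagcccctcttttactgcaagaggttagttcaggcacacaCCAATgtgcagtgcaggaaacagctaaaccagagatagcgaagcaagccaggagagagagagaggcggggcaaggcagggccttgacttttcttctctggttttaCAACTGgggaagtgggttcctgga
The Nkx6-2 window held 2 CCAAT boxes, 1 E-box, no TATAAA and 26 CG dinucleotides. The Olig3 window held 1 of each of the 3 motifs and 4 CG dinucleotides. Over all 32851 promoter windows of 250 bases, 66.2% held an E-box, 33.8% a CCAAT box and 12.4% a TATAAA box on either strand, and the median window held 6 CG dinucleotides. The homeodomain core TAATTA was in neither window and in 4.84% of all windows. Matches of this kind describe the letters only and carry no information on binding.

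Among the dorsal factors, Pax3 and Olig3 were read only in Brg1cKO libraries and Pax7 in libraries of both genotypes. Pax3 (ENSMUSG00000004872, chr1:78101267-78197134 in mm10, minus strand), a paired-box factor of dorsal progenitors, neural crest and muscle precursors, had 152 and 232 reads in Brg1cKO libraries, or 5.19 and 8.95 CPM. It had 0 reads in both Control libraries. The groups did not overlap, and the level over both Brg1cKO libraries stood 79.4-fold above Control taken at 3 reads over both libraries. This value covers counting error in Control only and leaves out the spread between replicates. Olig3 (ENSMUSG00000045591, chr10:19356533-19358604, plus strand), a basic helix-loop-helix factor of dorsal progenitors and the rhombic lip, had 104 and 30 reads in Brg1cKO libraries, or 3.55 and 1.16 CPM, and 0 reads in both Control libraries. Its level over both Brg1cKO libraries stood 27.7-fold above the same limit, which again leaves out that spread. Its Brg1cKO replicates differed from each other by 1.29 on the log2 scale with 0.5 CPM added, against 0.73 for Pax3 and 1.77 for Nkx6-2. The median difference between replicates, over 4711 genes of similar level, was 0.94 in Brg1cKO and 1.66 in Control libraries.

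Pax7 (ENSMUSG00000028736, chr4:139737062-139833528, minus strand), the close relative of Pax3, did not share its pattern. It had 11 and 12 reads in Brg1cKO libraries, or 0.376 and 0.463 CPM, and 0 and 47 reads in Control libraries, or 0 and 2.49 CPM. The Control libraries thus lay on both sides of the Brg1cKO libraries, and the groups overlapped.

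The intermediate factors and Lhx1 gave no direction that held in every library. Pax6 (ENSMUSG00000027168, chr2:105668900-105697364, plus strand), a paired-box factor of intermediate progenitors, had 78 and 39 reads in Brg1cKO libraries, or 2.66 and 1.504 CPM, and 1 and 90 reads in Control libraries, or 0.065 and 4.78 CPM. Lhx1 (ENSMUSG00000018698, chr11:84518284-84525535, minus strand), a LIM-homeodomain factor of interneurons, had 74 and 28 reads in Brg1cKO libraries, or 2.53 and 1.08 CPM, and 0 and 60 reads in Control libraries, or 0 and 3.18 CPM. For both genes Control replicate 2 was the highest library and Control replicate 1 the lowest. Dbx2 (ENSMUSG00000045608, chr15:95623563-95655960, minus strand), a homeodomain factor of intermediate progenitors, had 103 reads in Brg1cKO replicate 1, or 3.52 CPM, and 0 reads in Brg1cKO replicate 2 and in both Control libraries. Dbx2 thus rested on a single library.

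The ventral factors held both the most abundant genes of the set and the gene that was read in Control alone. Nkx6-1 (ENSMUSG00000035187, chr5:101658139-101664996, minus strand), a homeodomain factor needed for motor neurons, was the single factor with 46 reads or more in all 4 libraries. It had 294 and 444 reads in Brg1cKO libraries, or 10.04 and 17.1 CPM, and 46 and 57 reads in Control libraries, or 2.99 and 3.02 CPM. The means were 13.6 ± 5.01 CPM in Brg1cKO libraries and 3.01 ± 0.0255 CPM in Control libraries (SD, n = 2 each), and the groups did not overlap.

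Nkx6-2 (ENSMUSG00000041309, chr7:139579376-139582797, minus strand), the paralogue of Nkx6-1 with which it shares ventral domains, had 119 and 392 reads in Brg1cKO libraries, or 4.06 and 15.1 CPM. It had 0 reads in both Control libraries. Its level over both Brg1cKO libraries stood 106-fold above Control taken at 3 reads, which covers counting error in Control only. Its exons share 246 bases with Inpp5a on the opposite strand, and whether the counting used strand is not stated in these sources. Inpp5a stood at 72.7 and 53.5 CPM in Brg1cKO libraries and at 29.0 and 55.8 CPM in Control libraries. Reads within the shared bases were not counted separately, and their part in the Nkx6-2 counts was not tested. Olig2 (ENSMUSG00000039830, chr16:91225457-91228677, plus strand), a factor of motor neuron and oligodendrocyte progenitors, had 0 reads in both Brg1cKO libraries and 0 and 43 reads in Control libraries, or 0 and 2.28 CPM. Like Dbx2 it rested on a single library.

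**Figure D1:**
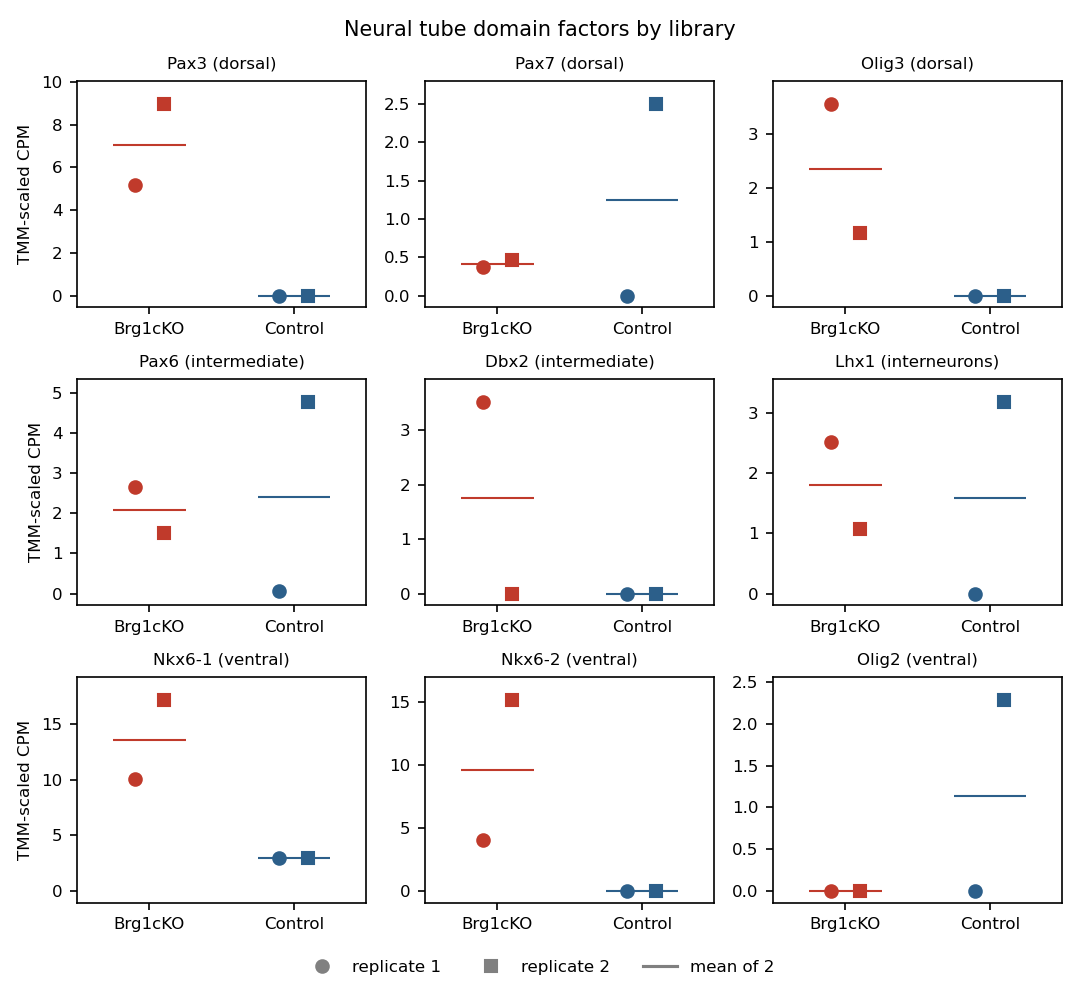
Level of each of the 9 factors in TMM-scaled CPM (vertical axis, linear, a separate scale in each panel) in Brg1cKO and Control libraries. Circles are replicate 1, squares replicate 2 and lines the mean of the 2 libraries. Pax3, Olig3 and Nkx6-2 lie above 0 in both Brg1cKO libraries and at 0 in both Control libraries, whereas Pax7, Pax6 and Lhx1 have a high and a low Control library.

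In these bulk libraries, fewer cells of a type and less RNA per cell cannot be told apart. Of the 9 factors, 4 had both Brg1cKO libraries above both Control libraries, namely Pax3, Olig3, Nkx6-1 and Nkx6-2, and 0 had both below. Over all tested genes, 26.3% had both Brg1cKO libraries above and 17.8% had both below. Both were above for 28.1% of genes with total reads in the range of the factors. In Control, 3 factors were read in 1 of the 2 libraries (Pax7, Lhx1 and Olig2, in replicate 2 each time), as were 36.7% of genes in that range of reads. In Brg1cKO, 1 factor was (Dbx2), as were 18.1% of such genes.

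When all genes were fitted with edgeR's quasi-likelihood test, 7 of the 9 factors passed the filter on low counts and 0 of the 7 passed an adjusted p of 0.05, where 0.0302% of 16557 genes did. At an unadjusted p under 0.05, 3 factors were higher in Brg1cKO libraries by edgeR, against 7.66% of all tested genes. Pax3, Nkx6-2 and Olig3 passed the filter through their Brg1cKO libraries alone, so a difference was built into their passing. Their fitted log2 fold changes depend on the small count added to zeros and are not bounds.

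Nkx6-2 had the smallest p of the set (fitted log2 fold change 10.75 ± 2.70, SE, edgeR unadjusted p = 0.00683, adjusted p = 0.312). Pax3 had an edgeR adjusted p of 0.353 and Olig3 of 0.368. The 95% intervals began at 4.19 for Nkx6-2, 3.40 for Pax3 and 1.28 for Olig3 on the log2 scale. The values against 3 reads were higher, at 6.72, 6.31 and 4.79 in the same order. Nkx6-1, which had 46 reads or more in every library, was fitted at 2.17 ± 1.15 on the log2 scale (SE). Its 95% interval ran from -0.52 to 4.86 (edgeR adjusted p = 0.540).

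Pax6, Lhx1 and Pax7 had log2 fold changes of -0.22, 0.18 and -1.56, with adjusted p of 0.987, 0.991 and 0.892 by edgeR. Their 95% intervals ran from -5.47 to 5.04, from -5.61 to 5.97 and from -7.35 to 4.22. Differences of many fold in either direction therefore lay inside the error of these libraries, and the data do not show that these genes were equal between the genotypes.

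Calls on the factors depended on the tool and on single libraries. DESeq2 called 4 factors, all higher in Brg1cKO libraries (Pax3, Nkx6-1, Nkx6-2 and Olig3), where it called 8.33% of all genes as higher. Here and with a Control library left out, a difference was built into the passing of Pax3, Nkx6-2 and Olig3. Without Control replicate 1 or without Control replicate 2, edgeR called Pax3 and Nkx6-2 as higher, where it called 8.82% and 8.46% of genes as higher. In those fits the lone Control library was assumed to vary like the Brg1cKO libraries. Without Brg1cKO replicate 1, edgeR called 0 factors against 0.237% of all genes, and 1 factor had an unadjusted p under 0.05 against 2.67% of all genes. Without Brg1cKO replicate 2, edgeR called 0 factors against 0.173% of all genes, and 0 factors had an unadjusted p under 0.05 against 2.8% of all genes.

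**Figure D2:**
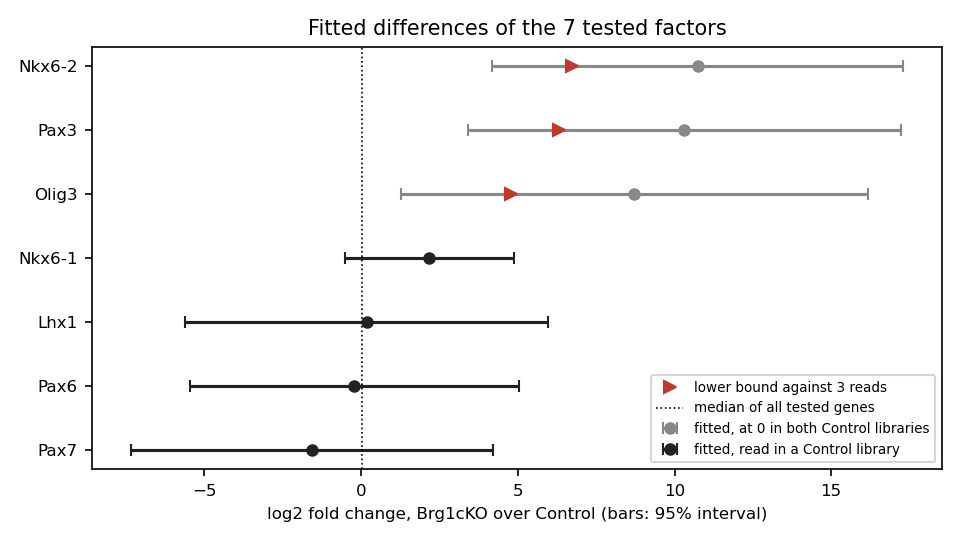
Fitted log2 fold change of Brg1cKO over Control (horizontal axis) for the 7 tested factors, with 95% intervals from edgeR as bars. Grey points are genes at 0 in both Control libraries, whose fitted value is no bound. Red triangles give their value against 3 reads, labelled a lower bound, which covers counting error in Control only. The dotted line is the median of all tested genes at 0.03. The intervals of Nkx6-1, Lhx1, Pax6 and Pax7 include 0.

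Levels could be ordered between genes only per length, as CPM per kilobase of merged exons. In Brg1cKO libraries Nkx6-2 and Nkx6-1 stood highest, at mean levels of 5.03 and 4.33 CPM per kilobase, and their libraries overlapped each other. Pax3 and Olig3 followed at 1.14 CPM per kilobase each, below every Brg1cKO library of the Nkx6 genes. Dbx2 at 0.507 and Lhx1 at 0.443 CPM per kilobase overlapped Olig3, and Pax6 at 0.178 and Pax7 at 0.0715 CPM per kilobase stood lower, each in both libraries below both libraries of the gene before it. Olig2 was at 0.

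In Control libraries Nkx6-1 stood highest at 0.958 CPM per kilobase, with both libraries above those of any other factor. Olig2, Lhx1, Pax7 and Pax6 followed, at mean levels of 0.451, 0.391, 0.213 and 0.207 CPM per kilobase, and each overlapped its neighbours because Control replicate 1 was at or near 0. The other 4 factors were at 0. No order was tested, since 2 libraries a group allow a two-sided exact permutation p of no less than 0.333.

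Neural tube and hindbrain genes beyond the 9 factors were read from 5 lists of 57 genes, of which 53 had reads and 42 were tested. By edgeR 0 were called, against 0.0302% of all tested genes. At an unadjusted p under 0.05, 7 were higher and 6 lower. Over 16557 tested genes, 1269 (7.66%) were higher and 2063 passed in either direction. Wnt3a, Barhl2, Lhx5, Lbx1 and Lhx3, among the higher ones, were at 0 in both Control libraries and passed the filter through Brg1cKO libraries alone. En2, among the lower ones, passed through Control libraries alone. A difference was thus built into their passing. The median log2 fold change of the 42 tested genes was -0.24, against 0.03 over all tested genes, with 18 values above 0 and 24 below. Pax2, among the lower ones, is also on the list of otic epithelium markers, with a log2 fold change of -2.88. The part of otic cells in these values was not tested. A pattern of 0 reads in both Control libraries and reads in both Brg1cKO libraries was found for 9 of the 53 genes, or 17%, against 6.73% of all genes with reads. Among those with total reads in the range of the 9 factors it was found for 7 of 27, or 25.9%, against 11.3% of all genes in that range. The lists were chosen with earlier results of these data known, so these shares are a description and no test. The 9 genes with the pattern were Atoh1, Msx3, Prdm13, Wnt3a, Barhl2, Lhx5, Lbx1, Lhx3 and Lhx4, several of them named after their values were seen. Prdm13 and Lhx4 had fewer reads than the range. En2, a factor of the midbrain and hindbrain boundary, was the 1 gene of the opposite pattern, at 0 in both Brg1cKO libraries and at 0.52 and 17.8 CPM in Control libraries.

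Among other dorsal and intermediate factors, Atoh1, the proneural factor of the rhombic lip, stood at 2.80 and 0.231 CPM in Brg1cKO libraries and at 0 in both Control libraries. Its level thus came mainly from Brg1cKO replicate 1. Msx3, a homeobox gene of the dorsal neural tube, was higher in the other library, at 0.205 and 4.71 CPM in Brg1cKO libraries and at 0 in both Control libraries. Gsx1 and Ptf1a had no reads in any library, and Dbx1, the relative of Dbx2, was read in Brg1cKO replicate 1 alone at 0.512 CPM. The summed level of this list of 9 genes was 7.10 and 8.41 CPM in Brg1cKO libraries and 3.83 and 3.71 CPM in Control libraries.

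Roof plate genes gave no common direction, with 2 of 6 tested log2 fold changes above 0 and a median of -1.04. Wnt3a, a WNT ligand of the roof plate, stood at 10.9 and 3.51 CPM in Brg1cKO libraries and at 0 in both Control libraries (edgeR adjusted p = 0.359). Wnt1, its neighbour in the dorsal midline, stood at 4.03 and 2.16 CPM in Brg1cKO libraries and at 1.69 and 21.5 CPM in Control libraries, with Control replicate 2 highest as for Pax6 and Lhx1. Msx1, the most abundant gene of the list, stood at 72.8 CPM in both Brg1cKO libraries and at 104 and 125 CPM in Control libraries.

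Ventral genes were divided as well, with 3 of 6 tested values above 0 and a median of -0.11. Nkx2-2, a homeodomain factor of the most ventral progenitors, stood at 2.66 and 1.97 CPM in Brg1cKO libraries and at 5.72 and 40.7 CPM in Control libraries (edgeR adjusted p = 0.368), the opposite order to Nkx6-1. Shh, the ventral signal itself, stood at 7.38 and 15.97 CPM in Brg1cKO libraries and at 14.3 and 26.3 CPM in Control libraries, which overlapped. Sim1, a factor of ventral interneurons, stood at 2.49 and 4.40 CPM in Brg1cKO libraries and at 0.065 and 0 CPM in Control libraries (edgeR adjusted p = 0.373). Olig1, which lies beside Olig2 in the genome, was read in Control replicate 1 alone at 3.51 CPM, whereas Olig2 was read in Control replicate 2 alone.

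**Figure D3:**
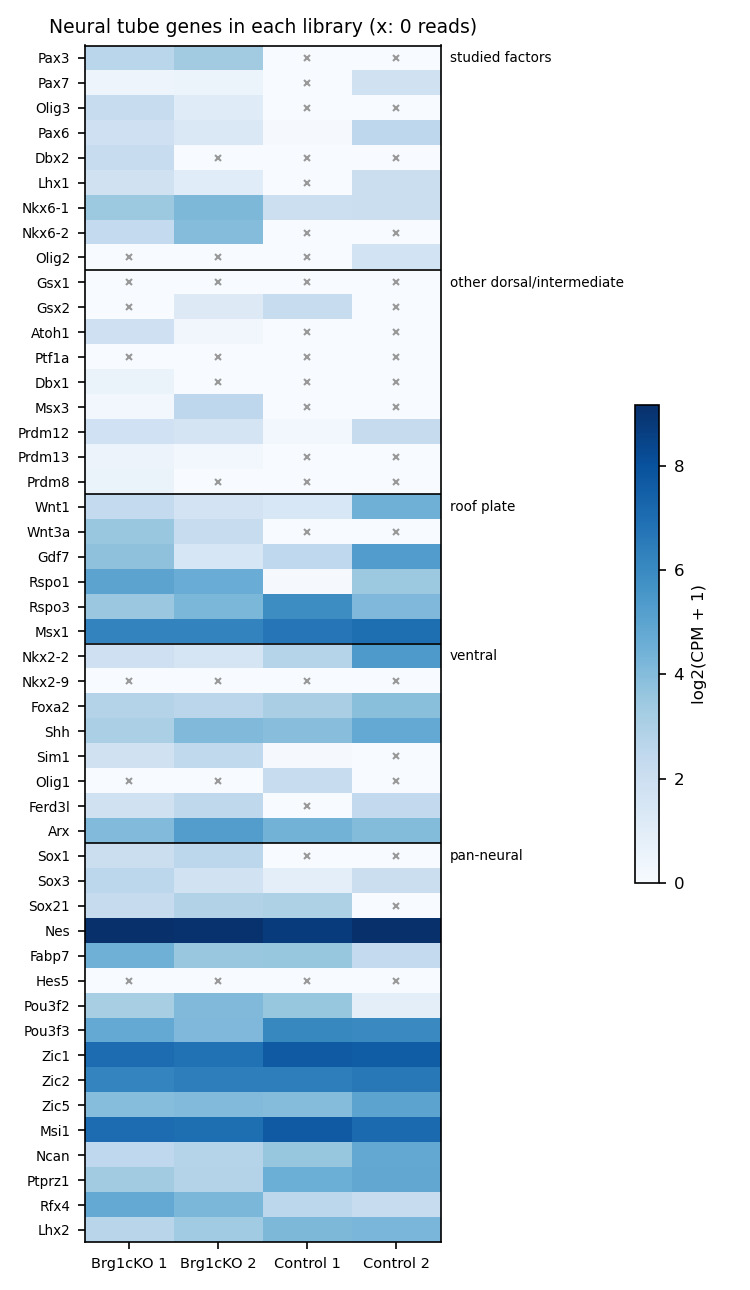
Level of each gene (rows, grouped by list) in each library (columns) as log2(CPM + 1), darker for higher levels, with crosses where a gene had 0 reads. Crosses for Pax3, Olig3, Nkx6-2, Atoh1, Msx3, Prdm13, Wnt3a and Sox1 stand in both Control columns and in neither Brg1cKO column.

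Segment factors of the hindbrain had 5 of 9 tested values above 0 and a median of 0.32. Egr2, which marks rhombomeres of the hindbrain, stood at 10.3 and 19.2 CPM in Brg1cKO libraries and at 13.6 and 21.0 CPM in Control libraries, and the groups overlapped. Hox genes of the list stood at other ratios. Hoxb1 was read in Brg1cKO replicate 2 alone, at 3.82 CPM. Hoxa2 stood at 26.5 and 18.5 CPM in Brg1cKO libraries and at 0 and 16.7 CPM in Control libraries, Hoxb2 at 5.46 and 3.90 CPM in Brg1cKO libraries and at 0.909 and 2.18 CPM in Control libraries, and Hoxb3 at 10.2 and 10.3 CPM in Brg1cKO libraries and at 3.77 and 5.84 CPM in Control libraries. Hoxa3 overlapped, at 19.1 and 34.9 CPM in Brg1cKO libraries and at 23.8 and 17.0 CPM in Control libraries, and the 4 tested Hox genes had adjusted p from 0.816 to 0.887 by edgeR. Otx2, a factor of forebrain and midbrain that also acts in the otic epithelium, stood at 21.9 and 17.0 CPM in Brg1cKO libraries and at 93.5 and 58.8 CPM in Control libraries (edgeR adjusted p = 0.228). The list of neuron classes had 7 of 19 values above 0 and a median of -0.24. Tbx20, which marks cranial motor neurons and the heart, stood at 117 and 111 CPM in Brg1cKO libraries and at 0.260 and 2.92 CPM in Control libraries (edgeR adjusted p = 0.110). The summed level of 7 cardiac muscle genes beside it was 718 and 697 CPM in Brg1cKO libraries and 159 and 116 CPM in Control libraries, and their part in the result for Tbx20 was not tested.

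General markers of neural progenitors gave no common direction. Of 16 genes 15 were tested, 7 values were above 0 and the median log2 fold change was -0.20. The summed level was 1014 and 980 CPM in Brg1cKO libraries and 1090 and 1175 CPM in Control libraries, of which Nes, an intermediate filament also made by endothelial and other cells, gave 553 and 545 CPM in Brg1cKO libraries and 429 and 574 CPM in Control libraries. Sox1, a factor of neural plate and neural tube progenitors, stood at 3.07 and 4.94 CPM in Brg1cKO libraries and at 0 in both Control libraries (edgeR adjusted p = 0.368). It passed the filter through Brg1cKO libraries alone, so a difference was built into its passing. Rfx4, a factor of neural tube progenitors, stood at 26.7 and 17.5 CPM in Brg1cKO libraries and at 4.87 and 3.61 CPM in Control libraries (edgeR adjusted p = 0.368). Hes5 was at 0 in every library, and Zic1, a dorsal neural factor also found in mesenchyme, stood at 129 and 115 CPM in Brg1cKO libraries and at 207 and 189 CPM in Control libraries.

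Pax3 and Pax7 are also expressed in neural crest and muscle precursors, so the markers of these cells are given beside them. In the crest list 3 of 9 tested values were above 0, the median was -0.57 and the summed level was 579 and 583 CPM in Brg1cKO libraries and 781 and 881 CPM in Control libraries. Ets1 and Sox9 were the most abundant genes of the list. Ets1 stood at 268 and 286 CPM in Brg1cKO libraries and at 257 and 222 CPM in Control libraries. Sox9 stood at 119 and 93.8 CPM in Brg1cKO libraries and at 213 and 218 CPM in Control libraries. Sox10, a factor of crest and glia, stood at 57.0 and 59.1 CPM in Brg1cKO libraries and at 116 and 166 CPM in Control libraries (edgeR adjusted p = 0.233). The part of otic and other cells in the levels of this list was not tested. Tfap2b, expressed in crest and ectoderm, stood at 22.9 and 25.1 CPM in Brg1cKO libraries and at 2.53 and 1.33 CPM in Control libraries (edgeR adjusted p = 0.296).

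The muscle precursor list had 3 of 8 tested values above 0, a median of -1.36 and a summed level of 140 and 148 CPM in Brg1cKO libraries, against 301 and 329 CPM in Control libraries. Of its defining factors, Myf5 was read in Brg1cKO replicate 1 alone at 2.70 CPM. Myod1 stood at 0 and 0.154 CPM in Brg1cKO libraries and at 1.23 and 26.9 CPM in Control libraries (edgeR adjusted p = 0.368). Lbx1, a factor of migrating muscle precursors and also of dorsal interneurons, stood at 4.06 and 2.35 CPM in Brg1cKO libraries and at 0 in both Control libraries, the pattern of Pax3, which Myf5 and Myod1 did not have. It was the 1 gene of the 12 on this list with that pattern, and the part of crest or muscle precursors in the Pax3 reads was not tested.

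Markers of some other cell types also stood at different levels in the same libraries. The endothelial list differed less, with a median log2 fold change of 0.08, and the head mesenchyme list had a median of 0.22. The summed level of 6 red blood cell genes was 213 and 193 CPM in Brg1cKO libraries and 587 and 630 CPM in Control libraries. The summed level of 6 white blood cell genes was 1207 and 1166 CPM in Brg1cKO libraries and 263 and 230 CPM in Control libraries, that of 10 early neuron genes was 463 and 403 CPM in Brg1cKO libraries and 1406 and 1407 CPM in Control libraries, and that of 6 endothelial genes was 2571 and 2557 CPM in Brg1cKO libraries and 2346 and 2216 CPM in Control libraries. The summed level of the 9 factors was 31.9 and 45.4 CPM in Brg1cKO libraries and 3.05 and 15.8 CPM in Control libraries. The factors were thus a small part of either genotype's reads, and the part of cell makeup in their differences was not tested. Nkx6-1 alone gave 2.99 of the 3.05 CPM in Control replicate 1.

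**Figure D4:**
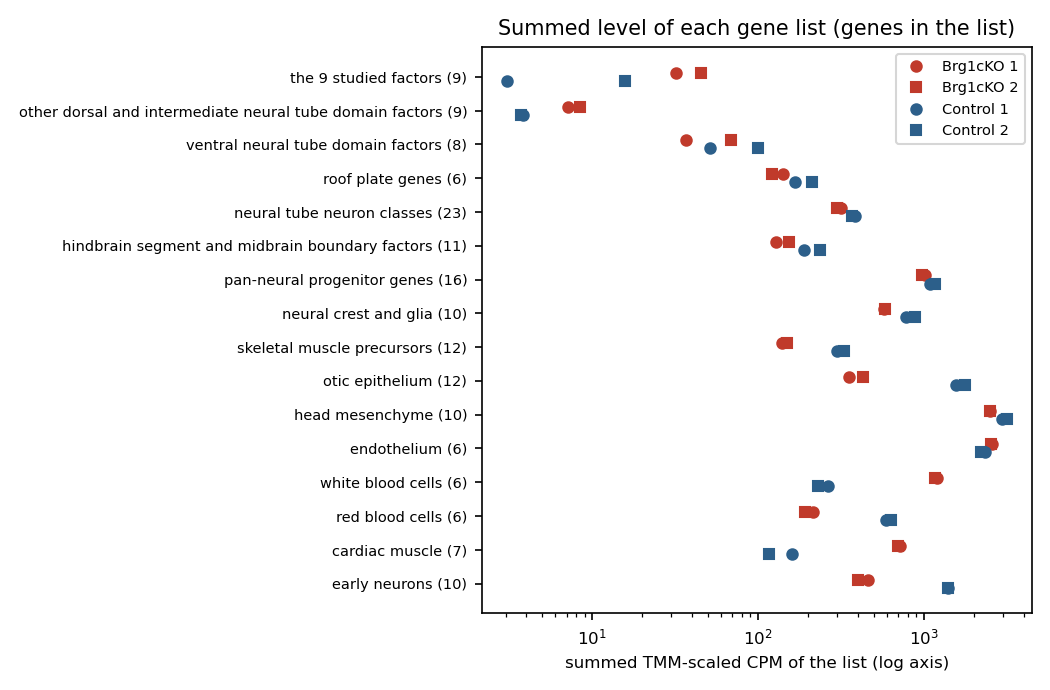
Summed TMM-scaled CPM of each gene list (horizontal log axis) in the 4 libraries, red for Brg1cKO and blue for Control, with the number of genes in each list in brackets. The 9 studied factors lie at 31.9 and 45.4 CPM in Brg1cKO libraries and at 3.05 and 15.8 CPM in Control libraries.

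The genes whose levels over the 4 libraries were most like each factor were found by the root mean square difference of centred log2 CPM. For Pax3 these were Eef1a2 (0.0418) and Lrrc39 (0.130), for Nkx6-2 Nrtn (0.119) and Gfra2 (0.183), and for Olig3 Klhl10 (0.0580) and Gm26359 (0.0609). For Pax6 they were Gm20056 (0.109) and Pld6 (0.135), for Lhx1 Zan (0.0534) and Cldn1 (0.117), for Pax7 Gm16184 (0.0801) and Ccdc122 (0.112), and for Nkx6-1 Gm7204 (0.119) and Gm9493 (0.152). None of these genes is a factor of the set or of the neural tube lists. Within a difference of 0.25 there were 14 other tested genes for Pax3, 10 for Pax6, 14 for Pax7, 22 for Nkx6-1, 4 for Nkx6-2, 45 for Olig3 and 8 for Lhx1, out of 16556.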

How the data were processed

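Read counts per gene were analysed for 2 Brg1cKO and 2 Control libraries. The authors deposited raw counts as whole numbers under Ensembl identifiers, with no normalization, from single-end reads of 75 bp and random-primed, strand-specific SMART-seq libraries of 3000 cells, per the labels' protocols. The submitters' processing notes name HISAT2, HTSeq, DESeq2 and mm10 without saying what each was used for. The annotation and strand setting of the counting are not stated in them. Totals and tests left out the 5 closing lines of each table, which belong to no gene and held records outside any gene (14.5% and 15.0% of all records in Brg1cKO, 21.0% and 21.6% in Control), ambiguous (3.00% and 2.95%, 2.23% and 2.20%), not aligned (9.54% and 9.41%, 20.9% and 19.1%) or not uniquely aligned (8.95% and 9.01%, 7.63% and 7.76%).

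Symbols, positions and exon lengths came from GENCODE M21, which matched 52403 of 52636 identifiers. The main test was edgeR 4.0.16 under R 4.3.3 (filterByExpr with a minimum count of 10, TMM scaling, robust quasi-likelihood F-test on genotype, Benjamini-Hochberg over 16557 genes, threshold 0.05). A check on simulated counts required only the right sign of changes, at a spread below the estimated one. The changed genes were above a set mean level and none was set to 0 in a group, so the check does not cover such genes. DESeq2 1.42.0, limma 3.58.1 (voom), other scalings and filters, the replicate number as a block, thinned libraries and each library left out were alternatives. The 9 factors, the gene lists and the tests were chosen with earlier results of these data known. The rule for named genes took the factors, up to 4 genes of each list with the smallest p, up to 3 with the highest CPM and, per tested factor, the 2 genes most like it over the libraries. Atoh1, Prdm13, Dbx1, Gsx1, Ptf1a, Olig1, Wnt1, Egr2, Hoxb1, Hoxa2, Hoxa3, Hoxb2, Hoxb3, Hes5, Myf5, Lhx3, Lhx4, Lhx5, Barhl2 and Inpp5a were named outside it or after their values were seen. A gene of the lists is not reported here and was left out of their counts.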

Additional observations from a re-analysis of the deposited data

How the results depend on the processing

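The count of called factors, 0 by edgeR, became 4 with DESeq2, where Pax3 had a log2 fold change of 9.32, Nkx6-1 of 2.14, Nkx6-2 of 9.76 and Olig3 of 7.73 (adjusted p from 3.06e-05 to 0.0287), and ranged from 0 to 2 with each library left out. Over all genes, 5 calls became 417 with every gene of at least 1 count, 10 with a minimum count of 50, 2422 with DESeq2, 54 with voom, 70 with the newer edgeR moderation and 140 with the replicate number as a block, and ranged from 33 to 3519 with a library left out. The replicate numbers do not pair the libraries by the labels, and deviations of same-numbered libraries correlated at -0.0053 over tested genes. Directions reversed for Pax6 with voom (1.42), the replicate block (1.57) and thinned libraries (0.015), and for Pax7 with voom (0.45) and the replicate block (0.69). With a library left out, log2 fold changes ranged from -1.19 to 4.88 for Pax6, from -2.55 to 6.32 for Pax7, from -0.81 to 8.41 for Lhx1, from 9.79 to 10.49 for Pax3, from 9.43 to 11.25 for Nkx6-2, from 7.55 to 9.24 for Olig3 and from 1.74 to 2.52 for Nkx6-1. The count of factors at 0 in Control and read in Brg1cKO, 3, ranged from 3 to 5 with a library left out (11.6% to 15.3% of all genes, against 6.73% with every library; without Control replicate 1 the opposite pattern held for 1 factor, Olig2), an alternative chosen after seeing the data, and stayed 3 with libraries thinned to 15357265 reads. The cause of these changes was not tested. Pax7 was under the filter when thinned, and Pax7 and Olig3 at a minimum count of 50. Depth limits all values near 0.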
